A study of Mus musculus with 6 samples.

Results

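The interferon-inducible GTPases examined here were 10 genes, 6 guanylate-binding proteins (GBPs: Gbp2, Gbp3, Gbp5, Gbp6, Gbp7 and Gbp9) and 4 immunity-related GTPases (IRGs: Irgm1, Irgm2, Igtp and Iigp1). They were taken by gene name from the 28812 genes of the deposited table, and each name matched 1 row. The libraries came from wild-type mouse chondrocytes, the cells of cartilage, labelled as osteoarthritic (OA). In 3 libraries the cells had received IL-1β, an inflammatory cytokine, together with mitochondria, and in 3 they had received IL-1β together with vehicle. The series title names osteocytes, the resident cells of bone, as the origin of the mitochondria. Both groups thus carried the IL-1β treatment, and no chondrocytes without it were analysed here. Strain, age, and whether the replicates were separate animals or cultures are not given in the sources used here, so p-values measure only the spread between these libraries.

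GBPs and IRGs are GTP-binding proteins of cell-autonomous immunity. Interferon gamma switches them on in nearly all nucleated cells, through its receptor and the kinases Jak1 and Jak2, and type I interferons induce many of them too. The proteins assemble on membranes, in particular those of vacuoles that hold bacteria or parasites. Among the IRGs, Irgm1, Irgm2 and Igtp are regulators that sit on the cell's own membranes and keep effectors such as Iigp1 inactive there. In mice, loss of Igtp or Irgm1 leaves animals open to intracellular pathogens.

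The genes lie in 4 places on GRCm38. Gbp5 (chr3:142493978-142522344), Gbp7 (chr3:142530342-142550149), Gbp3 (chr3:142560026-142573209) and Gbp2 (chr3:142620602-142638008) stand next to each other on the plus strand of chromosome 3. Gbp9 (chr5:105077630-105110277) and Gbp6 (chr5:105270702-105293696) belong to the minus-strand cluster of chromosome 5. Irgm1 (chr11:48861968-48871683, minus strand), Igtp (chr11:58199556-58207591, plus strand) and Irgm2 (chr11:58199618-58222782, plus strand) are on chromosome 11, and Iigp1 (chr18:60376027-60392634, plus strand) is on chromosome 18. All 10 are protein-coding genes. Igtp and Irgm2 overlap on the same strand. Gbp6 overlaps the predicted gene Gm43302 and Gbp7 overlaps Gm43802, also on the same strand.

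The transcription start regions were searched for the cores of 2 interferon motifs on both strands. GAAA, 2 bases of any kind and GAAA again make the core of the interferon-stimulated response element (ISRE), which type I interferon signalling uses and which IRF factors bind. TTCNNNGAA is the core of the gamma-activated site (GAS), which interferon gamma signalling uses. RefSeq promoters (GRCm38.p6, 250 bases before to 50 after a start) were given for 7 of the 10 genes: Gbp2, Gbp3, Gbp5, Gbp7, Irgm1, Irgm2 and Igtp. All 7 had an ISRE core match in at least 1 promoter, against 3.44% of 32851 mouse promoters. A GAS core match was found in 4 of them (Gbp5, Gbp7, Irgm2 and Igtp), against 8.3% of all promoters, and both cores stood together in 0.454% of all promoters. These are matches to letters, not measured binding.

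The stretches below show how alike the matched regions are, with capitals marking the motif cores and each read 5′ to 3′ on the strand of its gene. Igtp and Irgm2 are shown because the 2 genes overlap and are alike in sequence, Gbp3 and Irgm1 because they rose, and Gbp7 and Gbp2 as members of the chromosome 3 cluster that did not pass. Given are the 120 bases before the RefSeq starts of Igtp (chr11:58199436-58199555, plus strand) and Irgm2 (chr11:58214857-58214976, plus strand), 102 bases upstream of Gbp3 (chr3:142559924-142560025, plus strand) and 120 bases before the start of Gbp7 (chr3:142530216-142530335, plus strand). For Irgm1 (chr11:48871428-48871457, minus strand) and Gbp2 (chr3:142620594-142620623, plus strand) only a 30-base site is given. There the matches lie inside the deposited span of the gene, not before it. The RefSeq starts of Irgm2 and Gbp5 also lie inside the deposited spans of their genes.
Igtp: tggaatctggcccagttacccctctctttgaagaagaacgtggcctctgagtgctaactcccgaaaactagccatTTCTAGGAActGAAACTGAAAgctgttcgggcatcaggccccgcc
Irgm2: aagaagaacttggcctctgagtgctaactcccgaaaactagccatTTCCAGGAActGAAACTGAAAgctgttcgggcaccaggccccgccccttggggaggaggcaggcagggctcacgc
Gbp3: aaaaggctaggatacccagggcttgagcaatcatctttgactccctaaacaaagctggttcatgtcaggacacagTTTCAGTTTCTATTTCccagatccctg
Gbp7: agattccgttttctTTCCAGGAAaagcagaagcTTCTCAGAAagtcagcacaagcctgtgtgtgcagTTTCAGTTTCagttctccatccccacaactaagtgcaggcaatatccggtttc
Irgm1: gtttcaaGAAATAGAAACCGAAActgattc
Gbp2: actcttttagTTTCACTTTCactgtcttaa

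Laid over each other without gaps, the Igtp and Irgm2 stretches matched at 87 of 90 bases (96.7%), and this shared block holds a GAS core followed by an ISRE core in both genes. The ISRE cores of Gbp3, Gbp7 and Gbp2 lie on the opposite strand, so that TTTC and TTTC stand 2 bases apart. In Gbp3 and Irgm1, 2 ISRE core matches overlap each other. Gbp3 has a second RefSeq start, whose window held neither core.

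**Figure D1:**
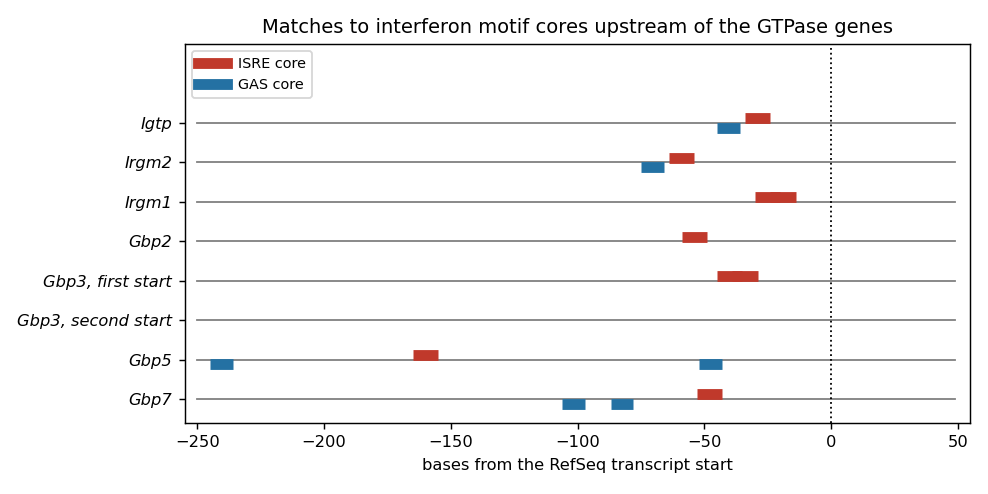
Positions of the motif core matches relative to the RefSeq transcript start (x axis, bases; the dotted line marks the start) in the 8 promoters of 7 GTPase genes, 1 line per promoter, with ISRE cores above the line and GAS cores below it. Igtp and Irgm2 show the same order, a GAS core and then an ISRE core, with the first base of the GAS core at -45 in Igtp and at -75 in Irgm2.

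The 10 GTPases did not move together in mitochondria-treated chondrocytes. Gbp3, Igtp and Irgm1 rose, Gbp6 fell, and Gbp2, Gbp5, Gbp7, Gbp9, Irgm2 and Iigp1 did not pass the test. The rises were 2.05-fold for Gbp3, 1.95-fold for Igtp and 1.46-fold for Irgm1, and Gbp6 fell to 0.369 of its vehicle level. All 10 genes passed the filter on low counts. The test was edgeR's quasi-likelihood test on the deposited counts with Benjamini-Hochberg adjustment over 17290 genes and a threshold of 0.05. Of all genes tested 6.36% rose, 8.46% fell and 14.8% did either, against 3, 1 and 4 of these 10. Their median log2 fold change, mitochondria over vehicle, was 0.45, and that of all genes tested was 0.00. The 3 mitochondria values lay wholly above the 3 vehicle values in 4 members (Gbp3, Igtp, Irgm1 and Iigp1) and wholly below in 1 (Gbp6), where 19.8% and 20.9% of all genes tested did so, 40.7% in either direction.

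Libraries held 63547854 to 66293786 deposited counts. Low counts piled up at 4, with 1.92 to 2.28 times as many genes there as at the more frequent neighbouring value, so 1 sequenced fragment is taken to be worth about 4 counts. On that reading Gbp2 rests on 462.5 to 727.5 fragments per library and Gbp9 on 5.75 to 20, and counting error weighs most on Gbp9, Gbp5 and Iigp1. Within the vehicle group, replicate 1 was the lowest library for 7 of the 10 genes, and within the mitochondria group replicate 1 was the lowest for 8. Over all genes 1099 rose and 1463 fell. Dropping vehicle replicate 2 left 130 higher and 316 lower, dropping vehicle replicate 3 left 132 and 310, and dropping mitochondria replicate 3 left 398 and 734. Levels below are CPM, deposited counts scaled to library size with TMM factors, unless FPKM is named, and SE is the standard error of the log2 fold change.

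**Figure D2:**
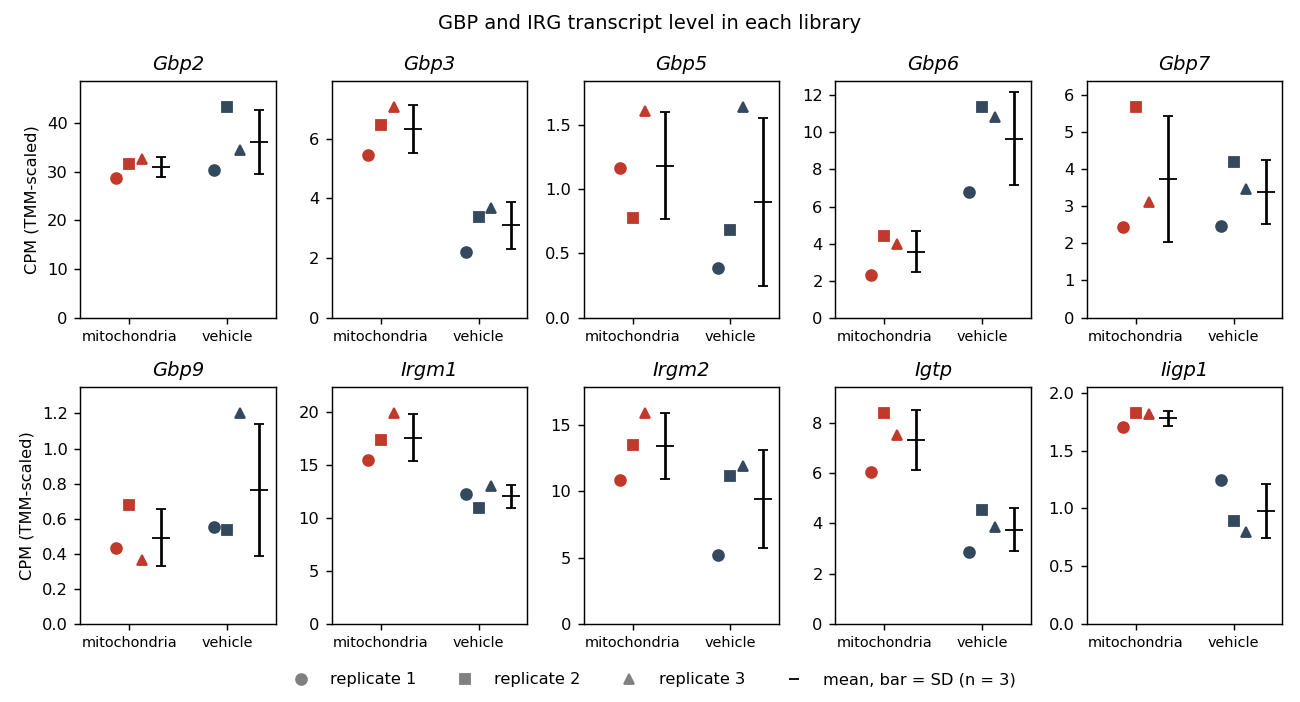
CPM of each GTPase gene (y axis, from 0) in each library, with mitochondria libraries in red and vehicle libraries in dark blue, a symbol for each replicate number, and the mean with its SD (n = 3) beside them. Gbp3, Igtp, Irgm1 and Iigp1 sit higher in every mitochondria library than in any vehicle library, and Gbp6 sits lower.

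Among the regulatory IRGs, Igtp (ENSMUSG00000078853) had 6.04, 8.38 and 7.53 CPM in mitochondria replicates 1, 2 and 3, against 2.86, 4.55 and 3.86 CPM in vehicle replicates 1, 2 and 3. The groups did not overlap. Igtp averaged 7.32 ± 1.19 CPM with mitochondria and 3.75 ± 0.852 CPM with vehicle (SD, n = 3 each), a log2 fold change of 0.96 ± 0.23 (SE; adjusted p = 0.0260, edgeR). Dropping single libraries gave 0.80 to 1.12, and the call held only without mitochondria replicate 1. In the other 5 fits, lacking mitochondria replicate 2 or 3 or any of the vehicle replicates, the adjusted p was 0.0589 to 0.0984 (edgeR).

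Irgm1 (ENSMUSG00000046879), a regulator tied in mice to autophagy and to defence against mycobacteria, rose as well. It stood at 15.5, 17.4 and 19.9 CPM in mitochondria replicates 1, 2 and 3, against 12.2, 10.9 and 13.1 CPM in vehicle replicates 1, 2 and 3. Every mitochondria library was above every vehicle library. The means were 17.6 ± 2.21 CPM with mitochondria and 12.1 ± 1.08 CPM with vehicle (SD, n = 3 each; log2 fold change 0.54 ± 0.14 SE, adjusted p = 0.0365, edgeR). Dropping single libraries gave 0.45 to 0.63, and this call too held only without mitochondria replicate 1 (adjusted p = 0.0663 to 0.151 in the other 5 fits, edgeR). In limma fits to log2(FPKM + 1) and log2(FPKM + 0.1) Irgm1 did not pass (adjusted p = 0.0883 and 0.0878).

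Irgm2 (ENSMUSG00000069874), which in mice restrains the caspase-11 inflammasome, had 10.9, 13.5 and 15.9 CPM in mitochondria replicates 1, 2 and 3, against 5.16, 11.2 and 11.9 CPM in vehicle replicates 1, 2 and 3. Vehicle replicate 1 was far below the other vehicle libraries, and those reached into the mitochondria range. The log2 fold change was 0.51 ± 0.30 (SE; adjusted p = 0.277, edgeR), and without vehicle replicate 1 it was 0.21. Its adjusted p was 0.101 or more in every alternative fit.

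Igtp and Irgm2 share 5.16% and 3.01% of their distinct transcript 100-base words with each other, a measure of reads that cannot be told apart. With both genes summed into 1 row, an alternative chosen after the overlap was seen, the log2 fold change was 0.65 and did not pass (adjusted p = 0.119, edgeR). Irgm2 gave more of that row, at 13.4 CPM against 7.32 CPM for Igtp with mitochondria and 9.41 against 3.75 CPM with vehicle. The sum therefore cannot decide whether the call of Igtp depends on how reads were assigned. The rise of Igtp is given for the row as the authors counted it. Whether the 2 genes differed in their response was not tested.

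The effector Iigp1 (ENSMUSG00000054072), which coats parasite vacuoles in mice, was scarce. It had 1.71, 1.82 and 1.82 CPM in mitochondria replicates 1, 2 and 3, against 1.24, 0.892 and 0.795 CPM in vehicle replicates 1, 2 and 3. The groups did not overlap, on 13.25 to 28.75 fragments per library, and the difference did not pass (log2 fold change 0.87 ± 0.32 SE, adjusted p = 0.106, edgeR). Iigp1 is the most A- and T-rich member, with a mean transcript GC content of 39.4%. With an offset for GC content in each library the log2 fold change was 1.67 and passed (adjusted p = 0.0146, edgeR).

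**Figure D3:**
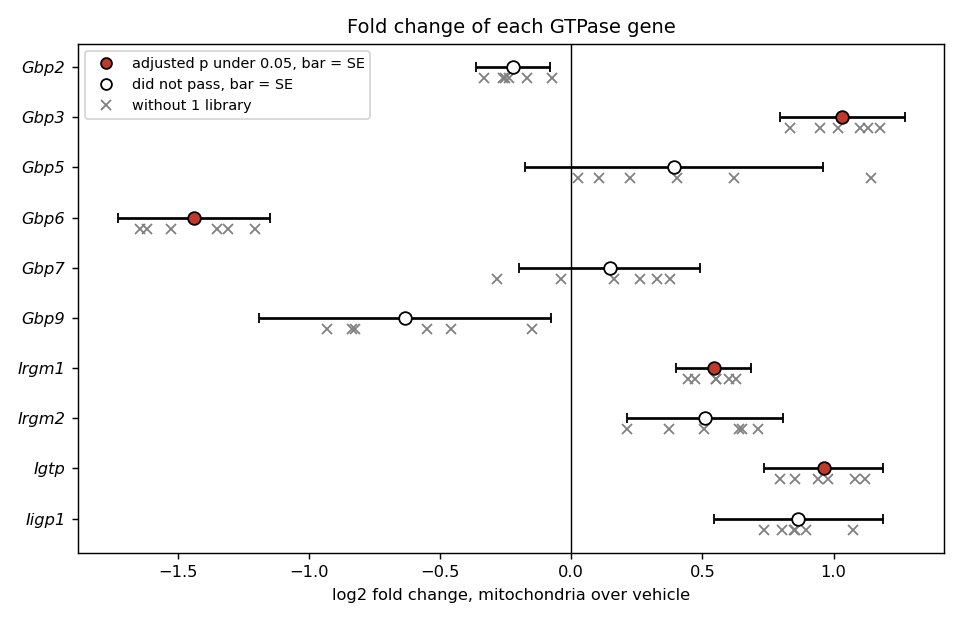
Log2 fold change of each GTPase gene, mitochondria over vehicle (x axis), with all 6 libraries (circles, bar = SE; red where the adjusted p was under 0.05) and with 1 library left out at a time (grey crosses). Gbp6 lies at -1.44 and Gbp3 at 1.03, and the crosses of Gbp7 fall on both sides of 0.

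Of the GBPs, Gbp3 (ENSMUSG00000028268) rose. Its level was 5.46, 6.48 and 7.06 CPM in mitochondria replicates 1, 2 and 3, against 2.20, 3.39 and 3.69 CPM in vehicle replicates 1, 2 and 3. No vehicle library reached the mitochondria range. The means were 6.33 ± 0.808 CPM with mitochondria and 3.09 ± 0.791 CPM with vehicle (SD, n = 3 each; log2 fold change 1.03 ± 0.24 SE, adjusted p = 0.0244, edgeR). The call held when replicate 1 of either group was dropped. It was lost on dropping replicate 2 or 3 of either group, with adjusted p-values of 0.0504 to 0.0835 and log2 fold changes of 0.95 to 1.18 (edgeR).

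Gbp6 (ENSMUSG00000104713) fell, and it was the only member to do so. It had 2.31, 4.40 and 3.98 CPM in mitochondria replicates 1, 2 and 3, against 6.78, 11.4 and 10.8 CPM in vehicle replicates 1, 2 and 3. The highest mitochondria library was below the lowest vehicle library. Gbp6 averaged 3.56 ± 1.10 CPM with mitochondria and 9.66 ± 2.50 CPM with vehicle (SD, n = 3 each), a log2 fold change of -1.44 ± 0.29 (SE; adjusted p = 0.0166, edgeR). Dropping vehicle replicate 2 or 3 gave -1.31 or -1.35, which did not pass (adjusted p = 0.0770 and 0.0760, edgeR), while the call held when any of the other 4 libraries was dropped.

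Gbp6 is also the least separable member: 64.5% of its 100-base transcript words occur in other genes, most of them in Gm43302, the predicted gene that overlaps it. Gm43302 itself had 1.18, 1.60 and 1.64 CPM in mitochondria replicates 1, 2 and 3, against 2.03, 4.27 and 4.08 CPM in vehicle replicates 1, 2 and 3 (log2 fold change -1.23 ± 0.33 SE, adjusted p = 0.0413, edgeR). Gm43302 shares 98.8% of its own words with other genes, most of them with Gbp6, so the 2 rows are not independent. When single libraries were dropped its own call held only without vehicle replicate 1, and the other 5 fits, each lacking a mitochondria library or vehicle replicate 2 or 3, gave adjusted p-values of 0.0681 to 0.155 (edgeR). It was also lost with GC offsets. With Gbp6, Gm43302 and the family member Gbp10 summed into 1 row, an alternative added after the overlap was seen, the log2 fold change was -1.30 and passed (adjusted p = 0.0218, edgeR). With GC offsets Gbp6 changed by -1.06 (adjusted p = 0.0110, edgeR).

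Gbp2 (ENSMUSG00000028270), a lipid-anchored GBP, was the most abundant member per length and did not pass. It had 28.7, 31.6 and 32.6 CPM in mitochondria replicates 1, 2 and 3, against 30.5, 43.3 and 34.5 CPM in vehicle replicates 1, 2 and 3. The groups overlapped at vehicle replicate 1. The log2 fold change was -0.22 ± 0.14 (SE; adjusted p = 0.329, edgeR), and dropping single libraries gave -0.33 to -0.07.

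Gbp7 (ENSMUSG00000040253), which acts in mouse macrophages at bacterial vacuoles, had 2.45, 5.67 and 3.11 CPM in mitochondria replicates 1, 2 and 3, against 2.47, 4.19 and 3.48 CPM in vehicle replicates 1, 2 and 3. The groups overlapped throughout, and mitochondria replicate 2 was the highest library. Gbp7 shares 10.0% of its 100-base words with other genes, 9.59% with Gm43802, which overlaps it. The log2 fold change was 0.15 ± 0.34 (SE; adjusted p = 0.816, edgeR), and its sign turned when mitochondria replicate 2 (-0.28) or vehicle replicate 1 (-0.04) was dropped.

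Gbp5 (ENSMUSG00000105504), a lipid-anchored GBP, had 1.16, 0.774 and 1.61 CPM in mitochondria replicates 1, 2 and 3, against 0.384, 0.684 and 1.64 CPM in vehicle replicates 1, 2 and 3. The vehicle libraries spread widely and included both the lowest and the highest of the 6. The log2 fold change was 0.39 ± 0.57 (SE; adjusted p = 0.688, edgeR). Gbp9 (ENSMUSG00000029298) had 0.434, 0.677 and 0.363 CPM in mitochondria replicates 1, 2 and 3, against 0.553, 0.535 and 1.20 CPM in vehicle replicates 1, 2 and 3. Vehicle replicate 3 stood alone above the rest, and the log2 fold change was -0.63 ± 0.56 (SE; adjusted p = 0.488, edgeR).

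Per transcript length the family was dominated by Gbp2 in both groups. In FPKM (fragments scaled by the authors to transcript length and depth) Gbp2 averaged 10.9 ± 0.740 with mitochondria and 13.4 ± 2.57 with vehicle (SD, n = 3 each), above 79.7% of all genes tested by its mean over the 6 libraries. Its share of the summed FPKM of the 10 genes was 46.9% ± 2.29 with mitochondria and 58.9% ± 3.96 with vehicle, and the 2 groups of 3 shares did not overlap. Irgm2, Igtp and Irgm1 followed at 3.22 ± 0.614, 3.21 ± 0.514 and 2.69 ± 0.351 FPKM with mitochondria and 2.38 ± 0.955, 1.73 ± 0.413 and 1.93 ± 0.166 FPKM with vehicle, levels that overlapped among the 3 genes within each group.

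By mean FPKM, Gbp6 ranked 5 with vehicle and 7 with mitochondria, and Gbp3 ranked 6 with vehicle and 5 with mitochondria. Gbp3 stood at 1.71 ± 0.225 FPKM with mitochondria and 0.876 ± 0.233 FPKM with vehicle, and Gbp6 at 0.527 ± 0.164 FPKM with mitochondria and 1.51 ± 0.407 FPKM with vehicle (SD, n = 3 each). Every mitochondria library had more Gbp3 than Gbp6 per length, and every vehicle library had more Gbp6 than Gbp3 per length. Gbp7, at 0.589 ± 0.266 FPKM with mitochondria and 0.560 ± 0.151 FPKM with vehicle, overlapped Gbp6 in the mitochondria group and Gbp3 in the vehicle group, and Gbp6 overlapped Igtp in the vehicle group. Iigp1, Gbp5 and Gbp9 were the lowest members, at 0.0620 to 0.277 FPKM in mitochondria libraries and 0.0523 to 0.228 FPKM in vehicle libraries. The neighbours Gbp5 and Gbp9 overlapped in each group.

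**Figure D4:**
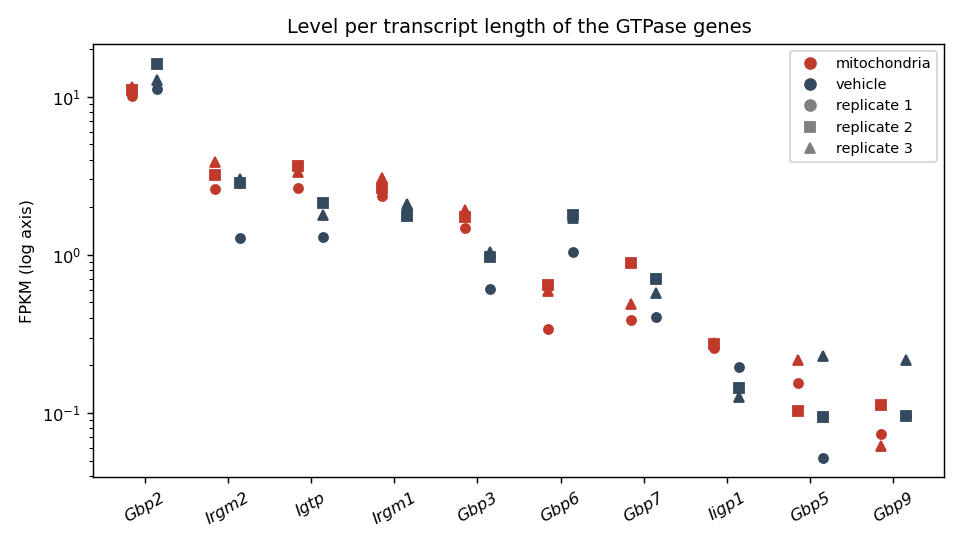
FPKM of each GTPase gene in each library (y axis, log scale), ordered by mean level, with mitochondria libraries in red and vehicle libraries in dark blue. Gbp2 stands above all other members at 10.1 to 11.6 FPKM with mitochondria and 11.1 to 16.2 FPKM with vehicle, and Gbp6 is below Gbp3 only in the mitochondria libraries.

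Summed over families, the 4 IRGs reached 9.38 ± 1.36 FPKM with mitochondria and 6.19 ± 1.30 FPKM with vehicle, and the 6 GBPs 14.0 ± 1.26 FPKM with mitochondria and 16.6 ± 3.26 FPKM with vehicle (SD, n = 3 each). The IRG sums were 7.87, 9.78 and 10.5 FPKM in mitochondria replicates 1, 2 and 3, against 4.70, 6.86 and 7.01 FPKM in vehicle replicates 1, 2 and 3, with no overlap. The GBP sums overlapped. The sum of all 10 genes was 23.4 ± 2.61 FPKM with mitochondria and 22.8 ± 4.40 FPKM with vehicle.

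Other GTPases of these and related families were also mixed. Of 21 listed, 18 had rows in the table and 11 were tested. Mx2 rose, Gm4070 and Gvin1 fell, and 8 did not pass, with a median log2 fold change of 0.01. Over all genes tested 6.36% rose and 8.46% fell. Mx2, an antiviral dynamin-like GTPase, rose, with 84, 103 and 135 deposited counts in mitochondria replicates 1, 2 and 3, against 8, 4 and 12 in vehicle replicates 1, 2 and 3 (log2 fold change 3.79 ± 0.53 SE, adjusted p = 0.00562, edgeR). At 4 counts per fragment the vehicle libraries held 2, 1 and 3 Mx2 fragments, so the size of its change rests on very few. In the limma fit to log2(FPKM + 1) Mx2 changed by 0.45 and passed (adjusted p = 0.0126). Gvin1 and Gm4070, interferon-inducible very large GTPases, share 97.8% and 95.6% of their 100-base words with other genes, mostly with each other, and their rows are not independent. Gvin1 had 2.89, 5.93 and 4.45 CPM in mitochondria replicates 1, 2 and 3, against 10.2, 11.2 and 10.2 CPM in vehicle replicates 1, 2 and 3 (log2 fold change -1.26 ± 0.25 SE, adjusted p = 0.0155, edgeR). Gm4070 gave -1.32 ± 0.29 (adjusted p = 0.0200, edgeR). Both calls were lost without mitochondria replicate 3, vehicle replicate 2 or vehicle replicate 3 (adjusted p = 0.0521 to 0.0837, edgeR). With GC offsets Gvin1 changed by -0.63 and Gm4070 by -1.07, and both passed (adjusted p = 0.0205 and 0.00938, edgeR).

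The list of interferon receptor and signalling genes, which also holds inhibitors and type I components, gave 5 higher and 1 lower of 20 tested. Over all genes tested the shares were 6.36% higher and 8.46% lower. The receptor subunits did not pass: Ifngr1 changed by -0.07 ± 0.09 and Ifngr2 by -0.10 ± 0.09 on the log2 scale (SE; adjusted p = 0.622 and 0.467, edgeR). Stat2 and Irf9, transcription factors of the type I response, rose by 1.22 ± 0.15 and 1.34 ± 0.11, and Usp18, a brake on the type I receptor, by 2.99 ± 0.19 (SE; adjusted p = 0.00423, 0.00285 and 0.00188, edgeR). These 3 calls held whichever library was dropped.

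The kinase Jak2 fell, at 28.3 ± 6.38 CPM with mitochondria and 61.8 ± 11.8 CPM with vehicle (SD, n = 3 each; log2 fold change -1.13 ± 0.20 SE, adjusted p = 0.0105, edgeR), a call lost without vehicle replicate 2 or 3 (adjusted p = 0.0537 and 0.0558, edgeR). With GC offsets Jak2 changed by -0.81 and passed (adjusted p = 0.00470, edgeR). Jak1 changed by -0.30 ± 0.16 (SE; adjusted p = 0.222, edgeR). Irf1, the factor that interferon gamma induces and that drives many GBP genes, changed by 0.07 ± 0.17, and the feedback inhibitor Socs1 by 0.34 ± 0.34 (SE; adjusted p = 0.817 and 0.545, edgeR). Socs3, a related inhibitor, rose by 0.46 ± 0.10 (SE; adjusted p = 0.0223, edgeR), a call lost without mitochondria replicate 3, vehicle replicate 2 or vehicle replicate 3 (adjusted p = 0.0503 to 0.113) and with GC offsets.

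Targets that prefer interferon gamma were compared with targets that prefer type I interferon, as counts from 2 lists. Of 22 tested genes of the first list, 2 rose and 1 fell, against 6.36% and 8.46% of all genes tested. The median log2 fold change of the list was 0.23. The chemokine Cxcl9 (1.67 ± 0.42 SE, adjusted p = 0.0321, edgeR) and the MHC class II chain H2-Ab1 (0.84 ± 0.16 SE, adjusted p = 0.0151) rose, and the complement inhibitor Serping1 fell (-0.55 ± 0.12 SE, adjusted p = 0.0222). Cxcl9 rested on 15.25 to 27.5 fragments per mitochondria library and 6.25 to 8 per vehicle library. H2-Ab1 averaged 169 CPM with mitochondria and 94.6 CPM with vehicle. The class II pathway genes H2-Aa (-2.27), H2-Eb1 (-0.23), Cd74 (0.17), H2-DMa (0.41) and H2-DMb1 (0.69) did not pass. Their group means were 0.106 to 4.44 CPM. Dropping single libraries, Cxcl9 held only without mitochondria replicate 1 (adjusted p = 0.0598 to 0.115 in the other 5 fits, edgeR). Serping1 was lost on dropping replicate 2 or 3 of either group (adjusted p = 0.0513 to 0.108, edgeR), and H2-Ab1 on dropping vehicle replicate 2 or 3 (adjusted p = 0.0793 and 0.0744, edgeR).

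Ciita, the class II transactivator, had 7, 0 and 4 deposited counts in mitochondria replicates 1, 2 and 3, against 20, 13 and 9 in vehicle replicates 1, 2 and 3, and was below the filter. Of 25 tested genes of the type I list, 17 rose and none fell, against 6.36% and 8.46% of all genes tested. The median log2 fold change of that list was 1.40. Of those that passed, the 6 with the largest changes were Isg15, Irf7, Ifit3b, Zbp1, Oas1a and Ifit1, with log2 fold changes of 1.86 to 2.92 (edgeR adjusted p = 0.00285 to 0.0196). Zbp1 was lost on dropping vehicle replicate 2 or 3 (adjusted p = 0.0590 and 0.0760, edgeR), and the other 5 held whichever library was dropped. The median of the 10 GTPases, 0.45, lies between those of the 2 lists. The difference between the lists was not tested.

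**Figure D5:**
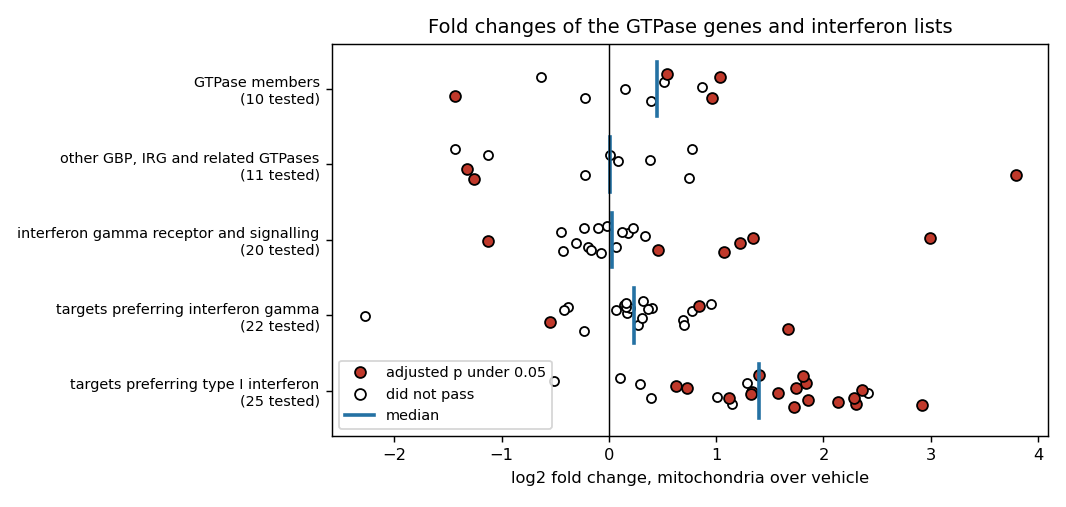
Log2 fold changes, mitochondria over vehicle (x axis), of the tested genes of 5 lists, 1 point per gene (red where the adjusted p was under 0.05), with the list median as a blue bar. The median is 0.45 for the GTPases, 0.23 for the targets preferring interferon gamma and 1.40 for those preferring type I interferon.

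Interferon gamma itself was not analysed here. Of 7 interferon and related cytokine genes with rows, Ifnb1, Ifna4, Ifna5 and Il27 were listed at 0 in all 6 libraries. A total of 0 counts in 3 libraries allows up to 3 fragments, or 12 deposited counts, for the group, a limit that covers counting error only. Il18 was the only one abundant enough to test and did not pass (log2 fold change -0.44). T and NK cells, which make interferon gamma, were represented by 9 marker rows. Their summed level was 0.177 to 1.12 CPM in mitochondria libraries and 0.285 to 0.522 CPM in vehicle libraries, Klrb1c and Ncr1 were at 0, and none was tested.

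Macrophages express GBPs and IRGs at high levels after interferon. The 12 macrophage markers summed to 76.2 to 90.8 CPM in mitochondria libraries and 73.2 to 92.9 CPM in vehicle libraries, and none passed in either direction. Endothelial markers, 8 with rows, summed to 2.43 to 4.87 CPM in mitochondria libraries and 2.44 to 3.20 CPM in vehicle libraries, with Tie1 and Cldn5 at 0 and none passing. Osteocyte markers, of which 3 of 6 were tested and none passed, summed to 244 to 271 CPM in mitochondria libraries and 153 to 235 CPM in vehicle libraries; their part in the GTPase values was not tested. Chondrocyte markers were all detected, at sums of 1484 to 1689 CPM with mitochondria and 1825 to 2204 CPM with vehicle. Of the 8, Acan and Sox9 rose (log2 fold change 0.54 each) and Hapln1 and Col11a1 fell (-1.03 and -0.94), against 6.36% and 8.46% of all genes tested. The call of Acan was lost with any library dropped, that of Sox9 with replicate 2 or 3 of either group, and that of Hapln1 with vehicle replicate 2 or 3 (adjusted p = 0.0510 to 0.162, edgeR). The part of this difference in the GTPase values was not tested. In RNA from a whole culture, fewer cells expressing a GTPase and less of it per cell cannot be told apart.

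Genes for proteins that GBPs and IRGs work with were tested in 3 lists, and 14.8% of all genes tested passed in either direction. Of 6 genes of CaaX prenylation, the lipid anchoring that lipidated GBPs need, 1 fell and none rose: Pggt1b, a subunit of the enzyme that attaches the geranylgeranyl lipid, had 18.8 ± 5.64 CPM with mitochondria and 41.1 ± 3.99 CPM with vehicle (SD, n = 3 each; log2 fold change -1.13 ± 0.21 SE, adjusted p = 0.0141, edgeR). The call was lost on dropping vehicle replicate 2 or 3 (adjusted p = 0.0615 to 0.0665, edgeR). None of 11 genes of the Atg8 conjugation machinery, which delivers GBPs and IRGs to vacuoles, passed in edgeR, with a median log2 fold change of 0.18. DESeq2 called 3 of them higher. Of 10 tested partners at vacuoles and inflammasomes, the autophagy receptor Sqstm1 rose (0.59 ± 0.13 SE, adjusted p = 0.0228, edgeR) and the inflammatory caspase Casp4 fell (-0.92 ± 0.22 SE, adjusted p = 0.0280). Both were lost without mitochondria replicate 3, vehicle replicate 2 or vehicle replicate 3 (adjusted p = 0.0556 to 0.121, edgeR). Casp4 was also lost with GC offsets, at -0.44 (adjusted p = 0.0639, edgeR).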

How the data were processed

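Poly(A) RNA of 6 mouse chondrocyte samples was sequenced as paired ends, per the labels' protocols, and the samples were grouped by their labels into 3 mitochondria and 3 vehicle libraries. The authors deposited estimated counts as whole numbers, not normalised, beside FPKM values scaled by the authors for length and depth. HISAT2 2.0, StringTie 1.3.0, Bowtie 0.12.2 and the build mm8 are named without roles, per the submitters' processing notes. Of 28732 gene identifiers found in GENCODE M21 (GRCm38), 90.2% had the same start and end, so positions are taken as GRCm38.

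edgeR 4.0.16 (R 4.3.3) compared the groups by its quasi-likelihood test, two-sided, without covariates, after TMM scaling and filterByExpr at a minimum count of 10. Benjamini-Hochberg adjustment ran over 17290 genes. The SE was taken from F and the log2 fold change. Alternatives used DESeq2 1.42.0, limma 3.58.1 and GC offsets (lowess of each library's deviation on transcript GC, span 0.3). Shared sequence was counted as 100-base words of GENCODE transcripts found in other genes.

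The members and the 14 gene lists were chosen with earlier results of these data known. All members are named. From other lists the called genes are named, at most 6 a list by size of change, with the receptor subunits, Jak1, Jak2, Irf1, Socs1 and Ciita whatever their values; 1 listed gene is counted but not reported here. Gm43302 was added after its overlap with Gbp6 was seen. The class II genes beside H2-Ab1 are also named whatever their values. Rabgdia, one of the listed partners, is not analysed here.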

Additional observations from a re-analysis of the deposited data

How the results depend on the processing

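Gbp3, Gbp6, Irgm1 and Igtp kept their direction in every alternative. They kept their calls (edgeR, adjusted p under 0.05) with RLE or upper-quartile factors, a minimum count of 40, counts divided by 4, GC offsets and DESeq2. With no filter on counts the log2 fold changes were 1.03 for Gbp3, -1.44 for Gbp6, 0.54 for Irgm1 and 0.96 for Igtp, and none passed (edgeR adjusted p = 0.0557 to 0.0736): 0 members were called higher and 0 lower, and 357 genes of all were higher and 507 lower. With limma on log2(FPKM + 1) without a filter the values were 0.54, -0.71, 0.33 and 0.63, with 0 members called higher and 0 lower, and 161 genes higher and 301 lower. Both settings add many genes near 0 to the adjustment; whether that is the cause was not tested. At an unadjusted p under 0.05, 5 of the 10 members passed in the edgeR fit with the filter. The share of all genes at that threshold was not counted, so this number cannot be judged against it. That share is larger than the 14.8% that passed after adjustment. Irgm1 did not pass in limma with a filter, at 0.33 (pseudocount 1) and 0.45 (pseudocount 0.1). Igtp summed with Irgm2 gave 0.65 and did not pass. GC offsets raised the genes called higher to 1690 and those called lower to 1627. Upper-quartile factors gave 1456 higher and 1350 lower. The cause was not tested.

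Leaving out 1 library at a time gave 130 to 1086 genes higher and 310 to 1694 lower, and 0 to 3 members higher and 0 to 1 lower. The log2 fold changes then ranged from 0.84 to 1.18 for Gbp3, -1.64 to -1.20 for Gbp6, 0.45 to 0.63 for Irgm1, 0.80 to 1.12 for Igtp and -0.28 to 0.38 for Gbp7. Irf1, uncalled throughout, ranged from -0.0792 to 0.204, and was -0.00904 in both limma fits with pseudocount 1, -0.0127 with pseudocount 0.1 and -0.0646 with GC offsets. Ifngr1 was 0.0465 with GC offsets. With a replicate block, 898 genes were higher and 1386 lower, 3 members higher and 1 lower, and the calls of Cxcl9, Serping1 and Acan were lost. Deviations of libraries with the same number correlated at 0.0837, 0.0272 and 0.0237, under 0.1, and not every library correlated best with its own number, so the numbers were not taken to pair the libraries. Gbp9 had too few counts or too low an FPKM to be tested in 4 of 11 alternatives. Gbp9, Gbp5 and Iigp1 rest on the fewest fragments of the members.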
